A study of Mus musculus with 6 samples.

Results

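The genes that shape the mitochondrial cristae and make cardiolipin were followed in pressure-overloaded hearts with and without a cardiomyocyte HINT2 transgene. The set held 10 of the 54532 gene rows of the count table, taken by gene name, and all 10 were found: Immt, Chchd3, Chchd6, Apoo, Apool, Samm50, Taz, Crls1, Ptpmt1 and Pgs1. Cristae are the folds of the inner mitochondrial membrane in which the respiratory chain and ATP synthase sit, and the mitochondrial contact site and cristae organising system (MICOS) holds the narrow necks of these folds and ties them to the outer membrane. Cardiolipin is the phospholipid that marks the inner membrane. It is made there from phosphatidic acid, is then remodelled to its mature acyl chains, and is bound by the respiratory complexes, and the heart is rich in it.

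RNA of the left ventricle was sequenced from 6 mice 4 weeks after aortic banding, a surgical narrowing of the aorta that loads the left ventricle. The 3 transgenic (TG) mice had the genotype HINT2CTG-Myh6Cre, in which a CAG promoter drives human HINT2 once a floxed stop cassette is cut out by a Cre expressed from the cardiomyocyte promoter Myh6, after injection of tamoxifen. The 3 non-transgenic (NTG) mice were C57BL/6J, and whether they received tamoxifen or carried Cre is not given in the sources used here, so transgene, Cre and tamoxifen cannot be told apart in this comparison. All 6 were male, were 8 to 10 weeks old at surgery and had aortic banding, so no group without pressure overload enters here. Each library was 1 heart, with 14863568 to 17581220 counted reads.

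The library labelled NTG 1 goes against the other NTG libraries in mouse Hint2, the counterpart of the human transgene. Whether reads of the transgene were also counted for mouse Hint2 is not known. Mouse Hint2, a mitochondrial histidine triad nucleotide hydrolase, had 12 counts in NTG 1 against 545 and 559 in NTG 2 and NTG 3, and 793, 828 and 859 in TG 1, TG 2 and TG 3. The main values are therefore also given without NTG 1. The hearts also differed in marker genes of other cells: the summed level of 7 fibroblast markers was 4701, 10840 and 6752 counts-per-million (CPM) in NTG 1 to NTG 3 and 2608, 4007 and 2308 CPM in TG 1 to TG 3, and that of 8 cardiomyocyte markers was 27270, 16575 and 23121 CPM against 31215, 25305 and 30841 CPM. All 8 cardiomyocyte markers were read at 427 CPM or more in every heart. In bulk tissue, fewer cells of a type and less RNA per cell cannot be told apart.

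None of the 10 genes passed the test between TG and NTG, and the largest differences were in the outer membrane partner Samm50, the bridging subunit Chchd3 and the cardiolipin phosphatase Ptpmt1. Differences are given as log2 fold changes, TG minus NTG, in which 1 stands for a doubling, from CPM scaled between libraries by the trimmed mean of M values (TMM). The test was the quasi-likelihood test of edgeR, adjusted by Benjamini-Hochberg over 14774 genes, and a call needed an adjusted p under 0.05 together with a difference beyond 0.5 in either direction. That test called 0 of the 10 genes higher and 0 lower, and it called 0% of all genes tested in each direction. DESeq2 also called 0 of the 10, beside 1.54% of all genes higher and 2.4% lower. At an unadjusted p under 0.05 in edgeR, 2 of the 10 genes, Samm50 and Ptpmt1, were higher, where 8.83% of all genes were, and 0 were lower, where 9.76% of all genes were. The fitted difference was above 0 in 8 of the 10 genes, against 48.7% of all genes tested, and below 0 in Chchd6 and Pgs1, against 51.3% of all genes, with a median of 0.21 beside -0.01 over all genes, or -0.18 beside -0.41 when each heart was scaled to its 8 cardiomyocyte markers instead. The sign of the median thus goes with the scaling, which moved all genes alike. The 10 genes lay 0.22 and 0.23 above the median of all genes on the former and the latter scale. Within a heart the divisor is the same for every gene, so this gap is kept by construction and does not test cell content. The marker scaling was chosen after seeing the data and is described gene by gene further on.

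**Figure D1:**
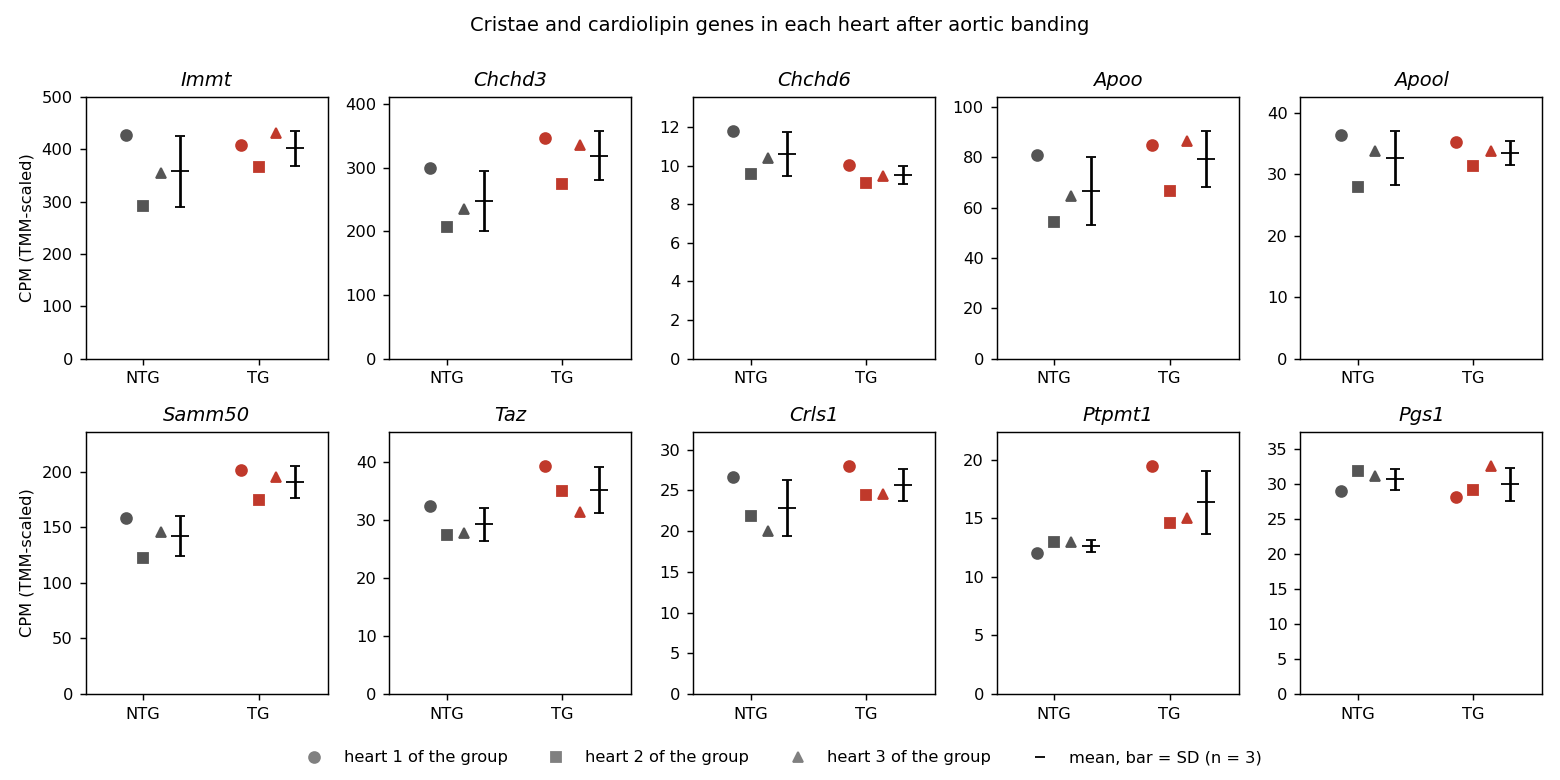
Level of each of the 10 genes in every heart, in TMM-scaled CPM, with NTG and TG hearts as separate points. The group mean is marked, with the SD as a bar. Samm50 and Ptpmt1 are the genes whose 3 TG hearts all sit above the 3 NTG hearts.

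Immt encodes mitofilin (Mic60), the membrane-anchored core of MICOS, on chr6:71831331-71877388, plus strand (gene ENSMUSG00000052337, build GRCm38 as for all gene coordinates here). It measured 428, 293 and 354 CPM in NTG 1, NTG 2 and NTG 3 and 408, 367 and 432 CPM in TG 1, TG 2 and TG 3. NTG 1 lay among the TG hearts while NTG 2 and NTG 3 lay below all of them. The means were 358 ± 67.6 CPM in NTG and 402 ± 33.3 CPM in TG (SD, n = 3 each), a log2 fold change of 0.17 with a standard error (SE) of 0.16 and a 95% interval from -0.19 to 0.53 (edgeR adjusted p = 0.581). Without NTG 1 it was 0.31 (edgeR adjusted p = 0.205), and without NTG 2 it was 0.04 (edgeR adjusted p = 0.933).

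Chchd3 encodes Mic19, the peripheral subunit that links mitofilin to the outer membrane protein Samm50, on chr6:32790976-33060260, minus strand (ENSMUSG00000053768). It measured 299, 207 and 236 CPM in NTG 1 to NTG 3 and 348, 275 and 336 CPM in TG 1 to TG 3. The groups overlapped through NTG 1, which was above TG 2. The log2 fold change was 0.37 (SE 0.16, edgeR adjusted p = 0.275), and it was 0.53 without NTG 1 (edgeR adjusted p = 0.0676) and 0.25 without NTG 2 (edgeR adjusted p = 0.572). Without NTG 1, DESeq2 called Chchd3 higher (adjusted p = 0.00971), as it did 5.92% of all 15136 genes then tested, and edgeR then called 2.67% of all genes higher and none of the 10. Neither tool called any of the 10 lower without NTG 1, beside 2.85% of all genes with edgeR and 5.79% with DESeq2.

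Chchd6 encodes Mic25, the close relative of Mic19 in the same complex, on chr6:89383146-89595652, minus strand (ENSMUSG00000030086). Its levels were low, with 11.8, 9.56 and 10.4 CPM in NTG 1 to NTG 3 and 10.03, 9.1 and 9.44 CPM in TG 1 to TG 3. It was the gene with the lowest fitted difference of the 10, and its groups overlapped through NTG 2. The log2 fold change was -0.15 (SE 0.14, 95% interval from -0.48 to 0.17, edgeR adjusted p = 0.576), or -0.07 without NTG 1 (edgeR adjusted p = 0.812) and -0.22 without NTG 2 (edgeR adjusted p = 0.63).

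The start regions of Immt, Chchd3 and Chchd6 are shown because the first pair are the MICOS genes that share a motif and the last is the relative of Chchd3 whose difference has the other sign. They are the 250 bases before the annotated start (RefSeq, GRCm38.p6), printed 5′ to 3′ on the strand of the gene, with capitals marking CCGGAAG, the core letters bound by the ETS factor GABPA. The regions are chr6:71831070-71831319 on the plus strand for Immt, chr6:33060261-33060510 on the minus strand for Chchd3 and chr6:89595653-89595902 on the minus strand for Chchd6.
Immt: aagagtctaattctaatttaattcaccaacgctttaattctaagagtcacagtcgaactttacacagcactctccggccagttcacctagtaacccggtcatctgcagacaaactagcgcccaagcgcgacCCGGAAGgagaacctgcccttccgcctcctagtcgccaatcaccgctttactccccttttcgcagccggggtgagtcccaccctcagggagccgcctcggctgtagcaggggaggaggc
Chchd3: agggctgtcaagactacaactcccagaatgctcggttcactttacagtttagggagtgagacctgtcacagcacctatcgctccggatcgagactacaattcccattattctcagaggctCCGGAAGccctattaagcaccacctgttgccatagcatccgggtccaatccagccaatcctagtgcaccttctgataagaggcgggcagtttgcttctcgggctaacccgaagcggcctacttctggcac
Chchd6: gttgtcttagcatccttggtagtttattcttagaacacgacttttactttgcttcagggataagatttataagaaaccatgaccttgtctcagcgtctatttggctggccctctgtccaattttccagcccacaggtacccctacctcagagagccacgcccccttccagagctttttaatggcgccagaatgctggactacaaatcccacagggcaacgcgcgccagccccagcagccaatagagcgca
The motif began 119 bases before the start of Immt and 130 bases before that of Chchd3. Searched on both strands in the same window, CCGGAAG was found in 2 of the 10 genes and in 7.83% of 27025 genes. Samm50, Ptpmt1, Taz, Apoo, Crls1 and Apool were also fitted higher and had no CCGGAAG in their windows. Any relation of the motif to the differences was not tested. The NRF1 motif, GCGC and TGCGC parted by 1 base of any kind, was found in Pgs1 alone, 58 bases before its start, and in 4.23% of all genes, and the E-box CACGTG in Crls1 alone and in 6.86% of all genes. The ERRA letters TCAAGGTCA and the YY1 letters AAGATGGCG were in the windows of 0 of the 10 genes and in 0.422% and 0.71% of all genes. These motifs do not overlap each other in the 10 genes, and a match is a run of letters and no measure of binding.

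Apoo and Apool encode Mic26 and Mic27, apolipoprotein O family subunits of MICOS, of which Mic27 binds cardiolipin. Apoo (chrX:94367117-94417093, plus strand, ENSMUSG00000079508) measured 80.9, 54.3 and 64.6 CPM in NTG 1 to NTG 3 and 85.0, 66.6 and 86.5 CPM in TG 1 to TG 3. NTG 1 was above TG 2, so the groups overlapped, and the log2 fold change was 0.25 (SE 0.17, edgeR adjusted p = 0.424), or 0.42 without NTG 1 (edgeR adjusted p = 0.113) and 0.13 without NTG 2 (edgeR adjusted p = 0.786). Its processed pseudogene Apoo-ps held 110 to 166 counts per heart, and reads of the parent and the copy may have been split between them. Apool (chrX:112311334-112372755, plus strand, ENSMUSG00000025525) measured 36.4, 27.8 and 33.8 CPM in NTG 1 to NTG 3 and 35.3, 31.4 and 33.8 CPM in TG 1 to TG 3. NTG 1 was the highest heart of all 6. The log2 fold change of Apool was 0.04 with a 95% interval from -0.24 to 0.31, or 0.12 without NTG 1 (edgeR adjusted p = 0.579) and -0.07 without NTG 2, and its sign turned in 4 of 23 other settings.

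Samm50 encodes the core of the sorting and assembly machinery that inserts barrel proteins into the outer membrane, and its protein joins MICOS in the bridge between the membranes. The gene lies on chr15:84192241-84217267, plus strand (ENSMUSG00000022437). It measured 158, 122 and 146 CPM in NTG 1 to NTG 3 and 202, 174 and 196 CPM in TG 1 to TG 3. All 3 TG hearts were above all 3 NTG hearts, as was so for 11.2% of all genes tested, with 12.3% separated the other way. The means were 142 ± 18.1 CPM in NTG and 191 ± 14.3 CPM in TG (SD, n = 3 each), a log2 fold change of 0.42 (SE 0.12, 95% interval from 0.14 to 0.70). The adjusted p was 0.196 with edgeR and 0.0561 with DESeq2. Without NTG 1 the log2 fold change was 0.51, with an adjusted p of 0.0535 with edgeR and, past both thresholds, of 0.00653 with DESeq2. Without NTG 2 it was 0.33 (edgeR adjusted p = 0.432). Without TG 2 the DESeq2 adjusted p was 0.0481, with a log2 fold change of 0.49 that missed the threshold.

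**Figure D2:**
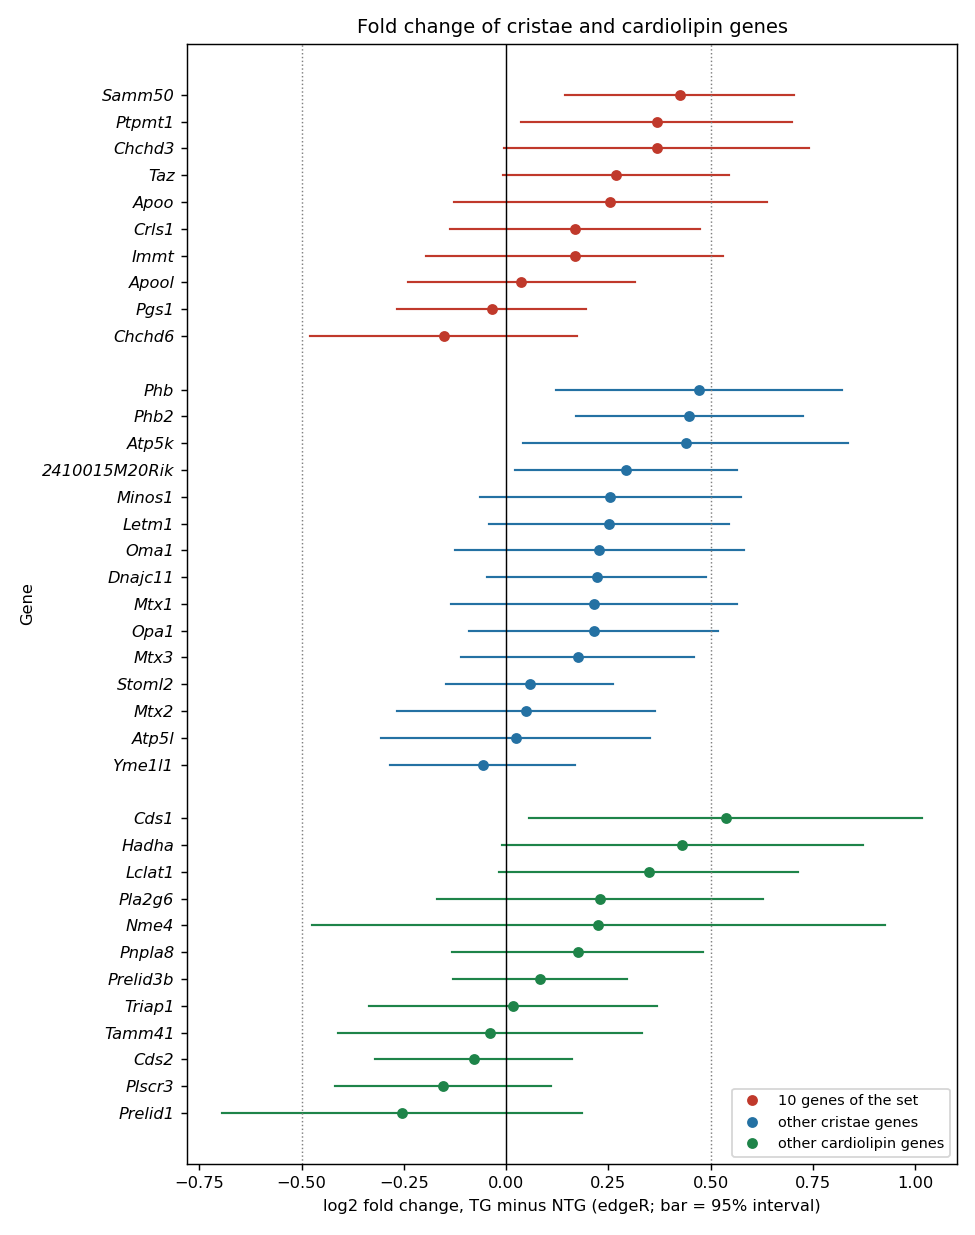
Log2 fold change of each of the 10 genes, TG minus NTG, as fitted by edgeR with its 95% interval. Samm50, from 0.14 to 0.70, and Ptpmt1, from 0.04 to 0.70, have intervals above 0, and neither passed after adjustment over all genes.

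Of the 4 genes of cardiolipin synthesis and remodelling, 3 were fitted above 0 and 1 below, with a median log2 fold change of 0.22 (0.14 to 0.31 as single hearts were left out). Pgs1 encodes phosphatidylglycerophosphate synthase, which commits the lipid to the pathway, on chr11:117986292-118024011, plus strand (ENSMUSG00000017715). It measured 29.0, 31.9 and 31.1 CPM in NTG 1 to NTG 3 and 28.1, 29.1 and 32.5 CPM in TG 1 to TG 3. The TG hearts held both the highest and the lowest value, and the log2 fold change was -0.04 with a 95% interval from -0.27 to 0.20 (edgeR adjusted p = 0.869), or -0.08 without NTG 1 (edgeR adjusted p = 0.709).

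Ptpmt1 encodes the mitochondrial phosphatase of the next step, which gives phosphatidylglycerol. It lies on chr2:90908716-90918258, minus strand (ENSMUSG00000063235). It measured 12.1, 13.0 and 13.0 CPM in NTG 1 to NTG 3 and 19.5, 14.6 and 15.1 CPM in TG 1 to TG 3. All TG hearts were above all NTG hearts, with TG 1 well above the others. The log2 fold change was 0.37 (SE 0.14, 95% interval from 0.04 to 0.70, edgeR adjusted p = 0.232), 0.33 without NTG 1 (edgeR adjusted p = 0.238) and 0.22 without TG 1. Ptpmt1 overlaps Kbtbd4 on the other strand, and since it is not stated whether counting used strand, reads of the pair may not be told apart. Kbtbd4 itself was at 4.6 to 5.91 CPM over the 6 hearts.

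Crls1 encodes cardiolipin synthase, which joins phosphatidylglycerol with an activated diacylglycerol, on chr2:132846666-132866785, plus strand (ENSMUSG00000027357). It measured 26.7, 21.8 and 20.1 CPM in NTG 1 to NTG 3 and 28.0, 24.5 and 24.6 CPM in TG 1 to TG 3. NTG 1 again lay within the TG range and the other NTG hearts below it. The log2 fold change was 0.17 (SE 0.13, edgeR adjusted p = 0.509), or 0.29 without NTG 1 (edgeR adjusted p = 0.179) and 0.08 without NTG 3 (edgeR adjusted p = 0.812).

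Taz encodes tafazzin, the acyltransferase that remodels cardiolipin and whose loss causes Barth syndrome with cardiomyopathy, on chrX:74281912-74290151, plus strand (ENSMUSG00000009995). It measured 32.4, 27.5 and 27.7 CPM in NTG 1 to NTG 3 and 39.2, 35.0 and 31.3 CPM in TG 1 to TG 3. The groups overlapped only through NTG 1 and TG 3. The log2 fold change was 0.27 (SE 0.12, 95% interval from -0.01 to 0.55, edgeR adjusted p = 0.277), or 0.35 without NTG 1 (edgeR adjusted p = 0.123) and 0.18 without TG 1 (edgeR adjusted p = 0.60). Taz shares sequence on the opposite strand with Dnase1l1, which was at 14.7 to 19.5 CPM over the 6 hearts.

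The library labelled NTG 1 was the highest NTG heart for 8 of the 10 genes, all but Ptpmt1 and Pgs1. NTG 2, which had the highest fibroblast and the lowest cardiomyocyte marker sum, was the lowest of all 6 hearts for 6 of the 10 genes. Without NTG 1, 7 of the 10 genes (Immt, Chchd3, Apoo, Samm50, Taz, Crls1 and Ptpmt1) had all 3 TG hearts above both NTG hearts, where 23.4% of all genes did, and 0 were separated the other way, where 23.6% of all genes were. The median log2 fold change over the 10 genes ran from 0.13 to 0.32 as each heart was left out in turn in edgeR.

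Markers of the cells in the samples were set beside these values. All 8 cardiomyocyte markers were fitted higher in TG, with a median log2 fold change of 0.40 (0.24 to 0.60 as single hearts were left out), but edgeR and DESeq2 called 0 of them, 2 were at an unadjusted p under 0.05 in edgeR, and each overlapped between groups. Their sum overlapped through NTG 1 alone, and without NTG 1 edgeR called 1 of the 8 higher. All 7 fibroblast markers were fitted lower, with a median of -1.12 (-0.73 without NTG 2), and DESeq2 called 4 of them, beside 2.4% of all genes lower. The 5 erythrocyte markers were all fitted lower (median -1.05). DESeq2 called 4 of them and edgeR without NTG 1 called 5, beside 2.4% and 2.85% of all genes lower. The 6 macrophage markers were all fitted lower with a median of -0.58 that was -0.22 without NTG 2. Of the endothelial markers 4 of 5 (median 0.23, and 0.10 without NTG 2) and 3 of 4 smooth muscle and pericyte markers (median 0.23) were fitted higher. The smooth muscle and pericyte markers ran from -0.61 to 0.70, and DESeq2 called 1 of them higher, beside 1.54% of all genes. Of the 4 atrial markers (Myl7, Myl4, Sln and Nppa) 3 were fitted higher, with a median of 1.52 that was -0.48 without TG 3 and 5.63 without NTG 1. Yet their summed level was 821 to 1403 CPM in NTG and 176 to 896 CPM in TG. Nppa also served as a hypertrophy marker in the paper, so this sum does not measure atrial tissue alone. The summed adipocyte markers reached 7.47 CPM at most. The atrial marker Myl7 was at 0 in NTG 3, the adipocyte markers Plin1 and Adipoq were each at 0 in at least 1 heart, and no marker of the other lists was at 0. Each gene was therefore also expressed per 1000 CPM of the 8 cardiomyocyte markers, a scaling added after seeing the data, under which the median log2 difference of the 14744 genes tested with counts in every heart was -0.41. Samm50 (0.02), Chchd3 (-0.03) and Ptpmt1 (-0.05) then had log2 differences near 0 with all hearts, and without NTG 1 they were at -0.06, -0.04 and -0.24. Chchd6 measured 0.433, 0.577 and 0.450 CPM per 1000 marker CPM in NTG 1 to NTG 3 and 0.321, 0.359 and 0.306 in TG 1 to TG 3. On this scale the TG hearts were below all NTG hearts for Chchd6 (log2 difference -0.56), Apool (-0.36) and Immt (-0.23), each with an exact two-sided permutation p of 0.1, the smallest that 3 against 3 hearts can give. These are 3 of the 10 genes, where 20% of all genes tested were separated in this direction on this scale, and 0 of the 10 were separated upwards, where 2.1% of all genes were. The 7 other genes overlapped, Pgs1 through NTG 1 alone. Without NTG 1, 4 of the 10 genes were separated downwards on this scale, where 60.3% of all genes were, and the medians were -0.24 for the 10 genes and -0.58 for all genes. The part of cell composition in the differences of the 10 genes was not tested beyond this scaling.

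**Figure D3:**
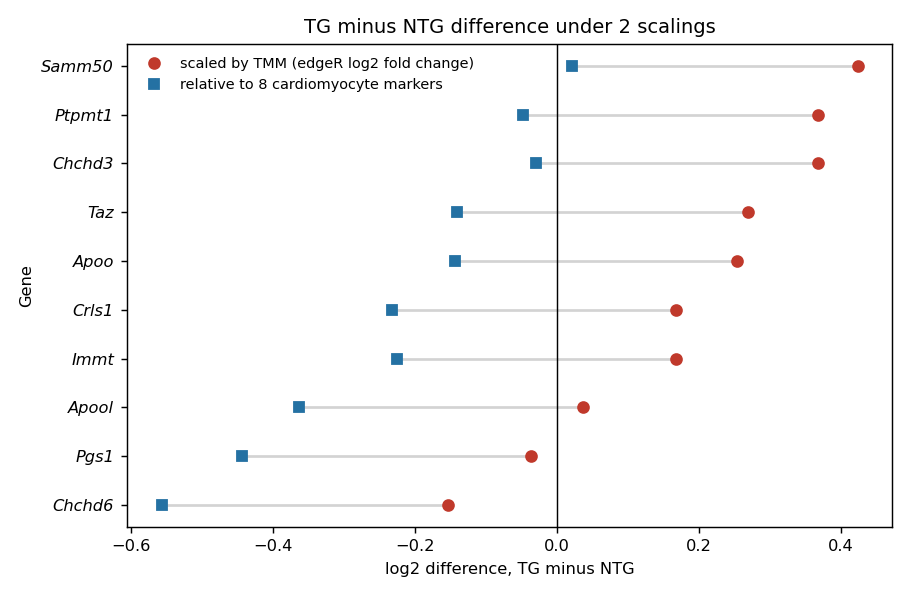
Log2 difference, TG minus NTG, of each of the 10 genes under TMM scaling (circles) and relative to the summed CPM of 8 cardiomyocyte markers in the same heart (squares). The median of the 10 genes moves from 0.21 to -0.18 and that of all genes from -0.01 to -0.41, and Samm50 is above 0 on both scales, at 0.42 and 0.02 with all hearts, while without NTG 1 its square would be at -0.06.

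Ratios within a heart do not depend on the scaling between hearts. Of 6 ratios, chosen after the values were seen, the ratio of Chchd3 to Chchd6 counts was 25.3, 21.7 and 22.6 in NTG 1 to NTG 3 and 34.7, 30.2 and 35.5 in TG 1 to TG 3. The groups did not overlap, and the means were 23.2 ± 1.88 and 33.5 ± 2.86 (SD, n = 3 each, exact two-sided permutation p = 0.1, and 0.15 after Benjamini-Hochberg adjustment over the 6 ratios, which does not cover their choice). Of all other genes tested, 26.9% had a ratio to Chchd6 whose TG hearts were all above the NTG hearts, and of all 45 pairs of the 10 genes 16 (35.6%) had ratios without overlap in either direction. The log2 difference of this ratio was 0.53, so that transcripts of Mic19 stood higher over those of its relative Mic25 in each TG heart than in any NTG heart.

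Samm50 to Immt was 0.369, 0.418 and 0.411 in NTG 1 to NTG 3 and 0.494, 0.476 and 0.452 in TG 1 to TG 3. Chchd3 to Immt was 0.699, 0.709 and 0.666 against 0.851, 0.750 and 0.776. These ratios, the outer membrane partner and the bridging subunit over the MICOS core, did not overlap between groups, and each had an exact permutation p of 0.1 (0.15 adjusted). Of all other genes tested, 6.2% had a ratio to Immt separated in this direction and 7.89% in the other. Ptpmt1 to Pgs1, consecutive steps of cardiolipin synthesis, was 0.416, 0.406 and 0.417 in NTG 1 to NTG 3 and 0.692, 0.502 and 0.463 in TG 1 to TG 3, with the same p and with TG 1 far above the other hearts, and 9.06% of all other genes had a ratio to Pgs1 separated in this direction. Apoo to Apool (log2 difference 0.22) and Crls1 to Taz (-0.09) overlapped between groups (exact permutation p = 0.2 for each, 0.2 adjusted). The overlap of Apoo to Apool was through NTG 1 alone, and without NTG 1 its log2 difference was 0.29, that of Chchd3 to Chchd6 0.59, of Samm50 to Immt 0.19, of Chchd3 to Immt 0.20, of Ptpmt1 to Pgs1 0.40 and of Crls1 to Taz -0.05. With 3 hearts a group, no ratio could pass 0.05.

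**Figure D4:**
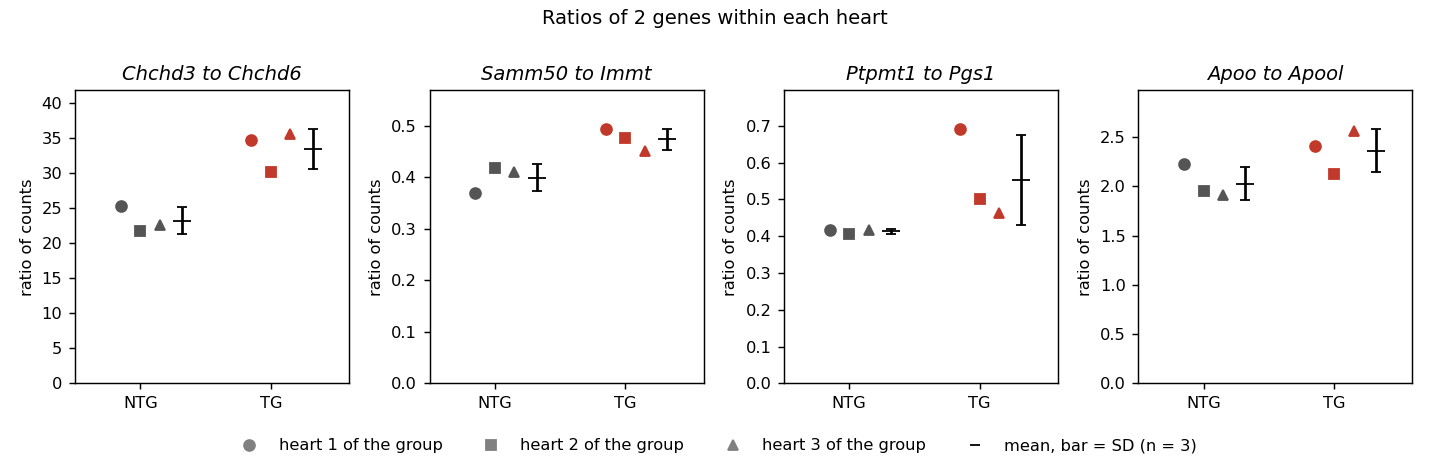
Ratios of counts between pairs of the 10 genes in each heart, with NTG and TG hearts as separate points. The group mean is marked, with the SD as a bar. Chchd3 to Chchd6 is 21.7 to 25.3 in NTG and 30.2 to 35.5 in TG, without overlap.

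The make-up of MICOS transcripts was also taken as shares of the summed CPM per kb of gene model over its 7 subunits, the 5 above with Minos1 (Mic10) and 2410015M20Rik (Mic13). The sum was 340, 248 and 285 CPM per kb in NTG 1 to NTG 3 and 373, 307 and 378 CPM per kb in TG 1 to TG 3. The groups overlapped through NTG 1 alone, with means of 291 ± 46.2 and 353 ± 39.9 (SD, n = 3 each, exact permutation p = 0.2), and without NTG 1 both NTG hearts lay below all TG hearts. Chchd3 held 29.2% ± 0.98 of it in NTG and 31.2% ± 0.80 in TG, Chchd6 1.45% ± 0.08 and 1.07% ± 0.09, and Apool 3.23% ± 0.16 and 2.74% ± 0.19. For these 3 subunits the groups did not overlap (exact permutation p = 0.1 for each). Set against the same sum, 3.78% of all genes tested were separated with TG higher, as Chchd3 was, and 14.9% with TG lower, as Chchd6 and Apool were. Immt held 10.8% in NTG and 10.1% in TG, Apoo 18.1% and 17.9%, Minos1 16.0% and 15.7%, and 2410015M20Rik 21.2% and 21.3%, with overlapping groups. Without NTG 1 the share of 2410015M20Rik was 22.2% in NTG, above all TG hearts, and the shares of the other 6 subunits kept their overlap or separation.

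Per kb of gene model and over all 6 hearts, the levels stood in the order Chchd3 (97.5 ± 19.0 CPM per kb), Apoo (58.2 ± 10.4), Immt (33.5 ± 4.7), Samm50 (25.4 ± 4.6), Crls1 (11.7 ± 1.4), Apool (9.49 ± 0.88), Taz (6.00 ± 0.84), Pgs1 (5.68 ± 0.34), Chchd6 (3.98 ± 0.39) and Ptpmt1 (3.94 ± 0.72), each as mean ± SD over 6 hearts. The MICOS subunits thus spanned the range, with Mic19 at the top and its relative Mic25 near the bottom. Within a heart, Immt was above Samm50 in 6 of 6 hearts although their ranges over hearts overlapped, and Crls1 was above Apool in 5 of 6. Taz was above Pgs1 in 3 of 6 hearts, 1 of them NTG, and their ranges overlapped, with means of 5.44 and 5.75 CPM per kb in NTG and 6.56 and 5.61 in TG. Chchd6 was above Ptpmt1 in all 3 NTG hearts (means 4.19 and 3.44 CPM per kb) and below it in all 3 TG hearts (3.77 and 4.45), so the order of this pair went with the group. Of all other genes tested, 26.9% had a ratio to Chchd6 separated in this direction, and where a pair crosses depends on the gene lengths. The lengths are those of the count table and hold every annotated exon of a gene, so a gene model with exons that the heart does not use gives too low a level.

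**Figure D5:**
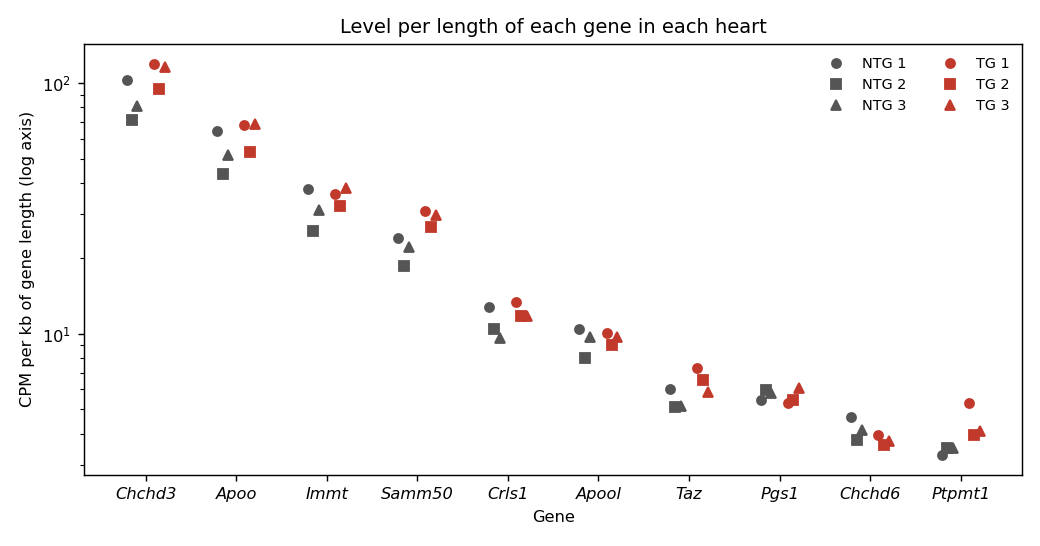
Level of each of the 10 genes per kb of gene model, in CPM per kb on a log axis, in each NTG and TG heart. The order over all 6 hearts runs from Chchd3 at a mean of 97.5 CPM per kb to Ptpmt1 at 3.94 CPM per kb, with Ptpmt1 lowest in the NTG hearts and Chchd6 lowest in the TG hearts.

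Of 15 further cristae genes, 14 were fitted higher in TG and 1 lower, with a median log2 fold change of 0.22 (0.14 to 0.30 as single hearts were left out). None was called by edgeR or DESeq2 with all 6 hearts, and 4 were higher at an unadjusted p under 0.05 in edgeR, beside 8.83% of all genes. Without NTG 1, edgeR called Phb2 higher (log2 fold change 0.54, adjusted p = 0.0444), beside 2.67% of all genes. Phb2, a prohibitin of the inner membrane scaffold, measured 139, 109 and 125 CPM in NTG 1 to NTG 3 and 186, 157 and 165 CPM in TG 1 to TG 3. Its groups did not overlap, the log2 fold change was 0.45, and the adjusted p was 0.196 with edgeR and 0.0408 with DESeq2, where the fold missed the threshold (by adjusted p alone, DESeq2 passed 4.22% of all genes in either direction). Its partner Phb had a log2 fold change of 0.47 (edgeR adjusted p = 0.207) and Atp5k, a subunit of ATP synthase dimers, of 0.44 (edgeR adjusted p = 0.233). As single hearts were left out, Phb2 ran from 0.36 to 0.54, Phb from 0.36 to 0.59 and Atp5k from 0.28 to 0.60, each lowest without NTG 2 and highest without NTG 1.

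The remaining MICOS subunits Minos1 and 2410015M20Rik had log2 fold changes of 0.25 and 0.29 (edgeR adjusted p = 0.35 and 0.242). As single hearts were left out, Minos1 ran from 0.17 without TG 3 to 0.38 without NTG 1, and 2410015M20Rik from 0.21 without NTG 2 to 0.38 without TG 2. Opa1, the dynamin-like GTPase that keeps cristae necks tight, measured 188, 144 and 176 CPM in NTG 1 to NTG 3 and 209.7, 174 and 207 CPM in TG 1 to TG 3. NTG 1 and NTG 3 overlapped with TG 2, and the log2 fold change was 0.21 (edgeR adjusted p = 0.401), or 0.30 without NTG 1 and 0.11 without NTG 2. Yme1l1, a protease that cleaves OPA1, was the 1 cristae gene fitted lower, with a log2 fold change of -0.06 (edgeR adjusted p = 0.772), or 0.01 without NTG 1 and -0.12 without NTG 3.

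Of 13 further genes of cardiolipin supply, remodelling and transport, 12 were tested, 8 were fitted higher and 4 lower, and none was called by edgeR or DESeq2. Their median was 0.13 (0.08 to 0.17 as single hearts were left out). At an unadjusted p under 0.05 in edgeR, 1 was higher, Cds1, a synthase of CDP-diacylglycerol of the endoplasmic reticulum, which measured 11.3, 8.66 and 7.87 CPM in NTG 1 to NTG 3 and 16.7, 13.0 and 10.6 CPM in TG 1 to TG 3. NTG 1 was above TG 3, and the log2 fold change was 0.54 (edgeR adjusted p = 0.231), or 0.70 without NTG 1 (edgeR adjusted p = 0.0863) and 0.35 without TG 1 (edgeR adjusted p = 0.55). Its relative Cds2 was at -0.08 (edgeR adjusted p = 0.703), and Tamm41, the synthase of CDP-diacylglycerol inside mitochondria, was at -0.04 (edgeR adjusted p = 0.914), with 5.73 to 6.71 CPM over the 6 hearts. Without NTG 1, Cds2 was at -0.15 and Tamm41 at -0.10, and without NTG 3 they were at -0.03 and 0.01.

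Hadha, the trifunctional protein subunit that also reacylates monolysocardiolipin, had a log2 fold change of 0.43 (edgeR adjusted p = 0.276), and Lclat1, a lysocardiolipin acyltransferase, of 0.35 (edgeR adjusted p = 0.284). Prelid1, which carries phosphatidic acid between the mitochondrial membranes, was at -0.25 (edgeR adjusted p = 0.482), and Plscr3, a mitochondrial phospholipid scramblase, at -0.15 (edgeR adjusted p = 0.484). Without NTG 1, Hadha was at 0.59, Lclat1 at 0.48, Prelid1 at -0.44 and Plscr3 at -0.23 (edgeR adjusted p = 0.0895, 0.0939, 0.0774 and 0.234). At the other end, Hadha was at 0.28 and Prelid1 at -0.04 without NTG 2, Lclat1 at 0.21 without TG 1 and Plscr3 at -0.08 without TG 3 (edgeR adjusted p = 0.559, 0.939, 0.612 and 0.808). Pld6, which cleaves cardiolipin, had too few reads for the test, at 0.0579 to 0.361 CPM.

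Beside these, the 37 nuclear subunits of complex I in the table were all fitted higher, with a median log2 fold change of 0.49 (0.38 to 0.61 as single hearts were left out). DESeq2 called 15 of them higher, beside 1.54% of all genes. Of the mitochondrial import translocases, 22 of 26 were tested, 19 were fitted higher with a median of 0.29 (0.19 to 0.36 as single hearts were left out), and DESeq2 called 2 higher. edgeR called none of either list, and at an unadjusted p under 0.05 it put 29 and 10 of them higher, beside 8.83% of all genes. Without NTG 1, edgeR called 21 of the 37 complex I subunits and 5 of the 22 translocases higher and none of either lower. Of all genes it then called 2.67% higher and 2.85% lower. No gene set test was run between these lists and the 10 genes, whose median was 0.21 on the same scale.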

How the data were processed

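Poly-A RNA-seq libraries, 1 per left ventricle, were made by the authors, who cleaned the reads, aligned them (HISAT2 in the submitters' processing notes) and deposited raw read counts per gene from featureCounts. Those notes name the human build GRCh38, whereas the gene IDs and coordinates are mouse: 54495 of 54532 rows are in GENCODE M21 (GRCm38), 53585 with identical coordinates. Strand and multi-mapping settings are not given in the sources used here. The deposited counts were used as they stand, in 3 TG and 3 NTG libraries grouped by their labels. The p-values set the difference between the groups against the spread between these hearts. Genes passing filterByExpr (14774) were scaled by TMM and tested with edgeR 4.0.16 (glmQLFit and glmQLFTest, robust) in R 4.3.3, with Benjamini-Hochberg adjustment. DESeq2 1.42.0 and limma-voom (limma 3.58.1) were alternatives. A call needed a log2 fold change beyond 0.5 in either direction with an adjusted p under 0.05. The biological coefficient of variation was 18.7%. Single values were compared with exact two-sided permutation tests. Ratios, shares and marker-relative values without NTG 1 were added after seeing the data. The steps were tested on simulated data.

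The 10 genes and all lists were chosen with earlier results of these data known. Named beside the 10 were, of each further cristae or cardiolipin list, the 3 with the lowest unadjusted p among those fitted higher and among those fitted lower, plus Opa1, Minos1, 2410015M20Rik and Tamm41. Pld6 and the genes or pseudogene that share sequence with the 10 were named after their values were seen. Levels per length used the gene lengths of the deposited table. Promoters came from RefSeq tables (GRCm38.p6), and all 10 genes matched. No column of sample values was left unmatched.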

Additional observations from a re-analysis of the deposited data

How the results depend on the processing

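Over 23 other settings for each of the 10 genes (22 for Ptpmt1, which is not annotated as protein-coding), adjusted p stayed above 0.05 except for Chchd3 (log2 fold change 0.53) and Samm50 (0.51) in DESeq2 without NTG 1, and for Samm50 in DESeq2 without TG 2 (adjusted p = 0.0481, log2 fold change 0.49, short of a call). The count called higher was therefore 0 to 2 when single hearts were left out and 0 otherwise, and 0 genes were called lower under any setting. The count at an unadjusted p under 0.05, 2 as reported, was 1 with library size alone as the scaling, 1 among protein-coding genes only and 4 with no low-count filter, and ran from 1 to 5 when single hearts were left out, with 5 without NTG 1. The share of all genes under that p was not counted in these other settings, so their counts have no background. The median log2 fold change ran from 0.13 to 0.33 when single hearts were left out and was -0.18 relative to the cardiomyocyte markers. That change of sign is given by the divisor, since all genes moved to -0.41. The gap to them was 0.22 before and 0.23 after, which a divisor shared by all genes of a heart keeps by construction. Library size alone moved the median of all genes to -0.09 and that of the 10 genes to 0.13. Apool reversed to -0.045 with library size alone, and ran from -0.068 without NTG 2 (-0.066 in DESeq2, -0.0037 without TG 1) to 0.13 when single hearts were left out. With single hearts left out, Pgs1 ran from -0.10 without TG 3 to 0.0086 in DESeq2 without TG 1 (0.0043 in edgeR). The cause of these shifts was not tested.

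Replicate numbers did not pair the hearts: the correlations of same-numbered hearts' deviations from their group means were 0.08, 0.17 and -0.25. With the replicate block, 4 of the 10 genes had an unadjusted p under 0.05, 0 were called, and the median was 0.22. The share of all genes under that p with the block was not counted, so the 4 have no background. With 3 hearts a group the 95% intervals above set the precision.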
